A study of Homo sapiens with 14 samples.

Results

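The S100 calcium-binding proteins are described here as 10 genes, S100A2, S100A3, S100A4, S100A6, S100A10, S100A11, S100A13, S100A14, S100A16 and S100P, of the 23106 gene symbols counted. These 10 were selected by symbol as the S100 genes to be followed across the cell lines and oxygen levels, with results of these libraries known, so their levels and differences are given as a description and carry no p-value. The counts hold 11 further S100 genes, which are described after the 10. PC3, a line of prostate carcinoma cells, had 4 libraries per condition, and HCT116, a line of colorectal carcinoma cells, had 3. Cells of both lines, with no genetic change in any group used here, were kept for 16 h in 21% O2 (normoxia) or in 0.5% O2 (hypoxia), and polyadenylated RNA was sequenced. Each line was grown in a medium of its own, DMEM/Ham's F12 for PC3 and McCoy's 5a for HCT116, so line and medium cannot be told apart.

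S100 proteins are small vertebrate proteins with a pair of EF hands, the helix-loop-helix motif that binds calcium. Most form dimers, expose a hydrophobic face when calcium rises, and then bind partner proteins such as annexins or myosin. They act inside the cell on the cytoskeleton and the membrane, and several are also released and bind receptors such as AGER (RAGE). Many are expressed in epithelia and in carcinomas, and most of their genes sit side by side in the epidermal differentiation region of chromosome 1.

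In the GRCh37 annotation, the build to which the authors aligned the reads, 9 of the 10 genes lie on the minus strand of chromosome 1. S100A10 (chr1:151955391-151966335) and S100A11 (chr1:152004982-152020383) stand apart from the other 7, which fill 96762 bases from S100A6 (chr1:153507075-153508720) to S100A13 (chr1:153591263-153603836). Between them lie S100A4 (chr1:153516089-153522612), S100A3 (chr1:153519805-153521734), S100A2 (chr1:153533584-153540366), S100A16 (chr1:153579362-153585621) and S100A14 (chr1:153586731-153589462). S100P is on the plus strand of chromosome 4 (chr4:6695605-6698897). S100A3 lies within the span of S100A4 without sharing exon bases, and S100A13 shares 235 exon bases, 10.6% of its exons, with S100A1 on the other strand. S100A13 also shares 536 exon bases, 24.2% of its exons, with a long noncoding RNA on the same strand that is not among the counted symbols. Whether the counting used strand is not stated, so reads in the bases shared with S100A1 cannot be assigned with certainty. Strand would not separate the reads shared with the noncoding RNA.

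The promoters of the 3 genes that passed the test in hypoxic PC3 cells, S100A2, S100A4 and S100A10, are shown because cells in hypoxia accumulate HIF, a factor that binds the core letters ACGTG or GCGTG. The windows come from RefSeq on GRCh38.p14, run 5′ to 3′ on the gene's strand from 250 bases before to 50 after a transcript start, and carry in capitals each match to ACGTG or GCGTG or, on the other strand, CACGT or CACGC.
S100A10, chr1:151993810-151994109, minus strand: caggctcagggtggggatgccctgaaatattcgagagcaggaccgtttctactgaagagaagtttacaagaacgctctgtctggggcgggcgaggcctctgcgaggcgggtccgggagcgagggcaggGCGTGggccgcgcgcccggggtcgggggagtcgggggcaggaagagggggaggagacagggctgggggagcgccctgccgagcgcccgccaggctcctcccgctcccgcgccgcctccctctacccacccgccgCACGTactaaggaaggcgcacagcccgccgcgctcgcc
S100A2, chr1:153565795-153566094, minus strand: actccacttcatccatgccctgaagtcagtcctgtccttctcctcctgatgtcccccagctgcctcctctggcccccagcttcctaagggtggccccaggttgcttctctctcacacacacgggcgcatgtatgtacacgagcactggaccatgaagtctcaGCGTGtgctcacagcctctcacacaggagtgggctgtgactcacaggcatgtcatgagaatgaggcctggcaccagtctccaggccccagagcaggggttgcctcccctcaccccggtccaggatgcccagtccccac
S100A4, chr1:153545757-153546056, minus strand: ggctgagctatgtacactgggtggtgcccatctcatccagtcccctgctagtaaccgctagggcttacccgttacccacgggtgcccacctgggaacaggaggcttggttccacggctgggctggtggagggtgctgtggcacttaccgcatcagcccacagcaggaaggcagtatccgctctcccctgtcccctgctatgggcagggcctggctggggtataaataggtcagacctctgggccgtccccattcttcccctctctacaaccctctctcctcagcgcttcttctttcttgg
S100A10 held 2 matches, GCGTG at position -122 and CACGT at position 12 from the start, and this window of S100A2 held GCGTG at position -88. The other RefSeq window of S100A2 and the window of S100A4 held none. The 10 genes have 14 windows, of which 7 held a match. By gene, 6 had a match in at least 1 window (S100A2, S100A6, S100A10, S100A11, S100A13 and S100A16) and 4 had none (S100A3, S100A4, S100A14 and S100P). Of 35116 RefSeq promoters of this length, 48.4% hold at least 1 match, so a match is common and is given as a description of the letters, not as a site.

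The libraries held 98021966 to 123935458 counts in normoxic and 71228454 to 96159803 in hypoxic PC3 cells, and 133067391 to 150630928 in HCT116 cells, so every hypoxic PC3 library was shallower than every normoxic one. The part of this depth gap in the PC3 comparison was not tested. Levels are CPM, counts scaled to the library size after TMM scaling over the 14 libraries, and 3 counts correspond to 0.0201 to 0.0447 CPM. NDRG1, a classical hypoxia-induced gene, was higher in hypoxia in PC3 (log2 fold change 2.87, SE 0.22, edgeR adjusted p = 0.000134) and in HCT116 (2.78, SE 0.14, edgeR adjusted p = 1.61e-07). Among the prostate markers, KLK2, KLK3 and FOLH1 were at or under 3 counts in every normoxic PC3 library while HOXB13 and TMPRSS2 were detected. Of 8 colon markers, CDX1, CDH17, LGALS4 and CEACAM5 were at or under 3 counts in every normoxic HCT116 library. CDX2, VIL1, GPA33 and EPCAM exceeded 3 counts in at least 1 of these libraries, but VIL1 did not pass the low-count filter of the HCT116 fit. The summed level of the 8 was higher in normoxic PC3 (408 to 432 CPM) than in normoxic HCT116 cells (324 to 351 CPM), so the sum does not mark HCT116 as the colon line. Single markers went both ways in normoxia. CDX2, at or under 3 counts in every PC3 library, was higher in HCT116 (edgeR adjusted p = 1.87e-08). CEACAM5 (edgeR adjusted p = 9.12e-07) and EPCAM (edgeR adjusted p = 0.000435) were higher in PC3, and GPA33 did not pass (edgeR adjusted p = 0.44). The summed level of 6 myeloid markers lay between 1.21 and 2.85 CPM in PC3 and between 0.336 and 0.712 CPM in HCT116. In these bulk libraries, a change in the share of cells that express a gene cannot be told apart from a change in the RNA of each cell.

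S100A6, which encodes calcyclin, stood highest of the 10 in both lines when counts were divided by exon length, at 901 ± 84.9 CPM per kb (SD, n = 4) in normoxic PC3 and 622 ± 128 CPM per kb (SD, n = 3) in normoxic HCT116 cells. In normoxic PC3 cells the order of level per kb was S100A6, S100A11, S100A10, S100A16, S100A14, S100A2, S100P, S100A13, S100A4 and S100A3. S100A14, S100A2 and S100P, at 45.5, 45.0 and 36.7 CPM per kb, were neighbours whose ranges over libraries overlapped, while the other neighbours did not overlap. In normoxic HCT116 cells the order was S100A6, S100A10, S100A4, S100A11, S100A16, S100A14, S100A13, S100A2, S100A3 and S100P, and only the ranges of S100A4 and S100A11 overlapped, at 126 and 110 CPM per kb. S100A4 was thus the third of the 10 in HCT116 and the ninth in PC3, and S100P was the seventh in PC3 and the last in HCT116. With this length, the order in hypoxia was that of normoxia in HCT116, and in PC3 only S100A2 and S100A14 changed places. The PC3 order depends on the length used. The exon union and the longest transcript are 1012 and 671 bases for S100A10, 649 and 563 for S100A11, and 1546 and 977 for S100A2. Divided by the longest transcript, S100A10 and S100A11 overlap in normoxic PC3 cells, where S100A2 stands above S100A14. In hypoxic PC3 cells S100A10 then stands above S100A11.

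**Figure D1:**
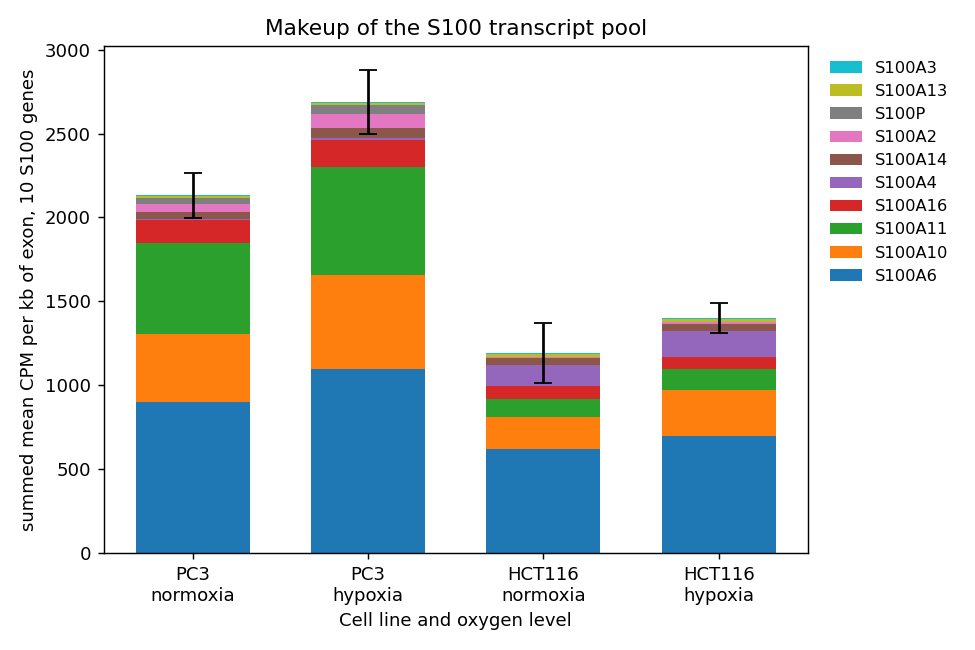
Summed level of the 10 S100 genes in each group, as stacked bars of mean CPM per kb of exon, with error bars for the SD of the sum over 4 (PC3) or 3 (HCT116) libraries. The sum was 2131 in normoxic and 2687 in hypoxic PC3 cells against 1192 and 1401 in HCT116 cells, with S100A6 the tallest segment in each bar, S100A11 a larger segment in PC3 and S100A4 a visible segment only in HCT116.

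In normoxia, 9 of the 10 genes differed between the lines at an adjusted p under 0.05 in the edgeR fit, 6 of them higher and 3 lower in PC3. This is close to the background, since 83.4% of the 15206 genes tested passed the same threshold. The same 9 genes did not overlap between the 4 PC3 and 3 HCT116 libraries, against 82.9% of all genes tested. The log2 differences, PC3 minus HCT116, ran from -4.69 for S100A4 to 7.72 for S100P.

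S100P, first found in placenta and known to bind ezrin and IQGAP1, was read at 28.8, 11.1, 12.6 and 16.7 CPM in the normoxic PC3 libraries 1 to 4. The normoxic HCT116 libraries held 11, 1 and 22 counts of it, which is 0.0737, 0.00709 and 0.164 CPM. The lines were far apart, with a log2 difference of 7.72 (SE 0.60), and the second HCT116 library was under the floor of 3 counts. S100A4, known for its link to metastasis and for binding non-muscle myosin, went the other way, with 4.12, 4.28, 4.72 and 5.63 CPM in PC3 and 93.6, 108 and 156 CPM in HCT116. Its log2 difference was -4.69 (SE 0.19), and the lowest HCT116 library was far above the highest PC3 library.

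S100A2, an epithelial and largely nuclear S100 protein, was higher in PC3, at 54.1, 73.3, 67.4 and 83.3 CPM against 9.99, 10.2 and 13.7 CPM in HCT116 (log2 difference 2.60, SE 0.16). S100A11, a partner of annexin A1, was also higher in PC3, at 377, 360, 354 and 318 CPM against 68.5, 74.5 and 71.2 CPM (log2 difference 2.28, SE 0.08). For S100A10, the partner of annexin A2, the PC3 libraries held 463, 402, 420 and 353 CPM and the HCT116 libraries 182, 184 and 204 CPM (log2 difference 1.09, SE 0.10). In all of these the groups stood apart with no library in between.

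The remaining genes differed less between the lines. S100A16, which is widely expressed, was higher in PC3 by 0.83 (SE 0.10) and S100A6 by 0.52 (SE 0.14) on the log2 scale. The cysteine-rich S100A3, known from the hair cuticle, had a log2 difference of -0.71 (SE 0.21), which no longer passed without the third normoxic HCT116 library, at -0.47. S100A13, which takes part in the unconventional release of FGF1 and IL1A, had one of -0.64 (SE 0.13). S100A14, an epithelial S100 protein, had 51.3, 51.5, 51.4 and 78.0 CPM in PC3 and 54.0, 53.5 and 45.1 CPM in HCT116. Its groups overlapped, and the log2 difference of 0.17 (SE 0.15) did not pass the threshold.

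**Figure D2:**
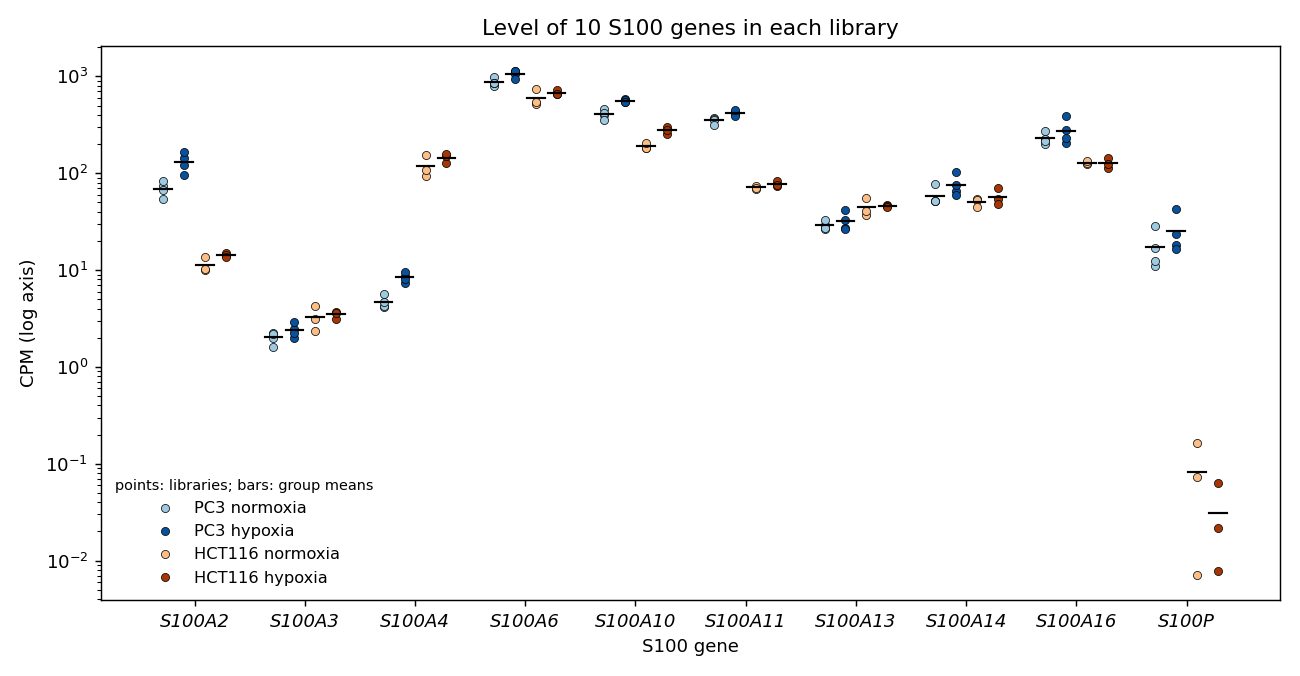
Level of each of the 10 S100 genes in every library, as CPM on a log axis, with points for libraries and short bars for the means of the 4 groups. The PC3 and HCT116 points stand furthest apart for S100P and S100A4, in opposite directions, and S100A14 shows the 4 groups at about the same height. CPM is not divided by gene length, so heights compare groups within a gene.

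In hypoxic PC3 cells, all 10 genes had a log2 fold change above 0 against normoxia, with a median of 0.34 beside 0.0023 over all genes tested. S100A2, S100A4 and S100A10 were higher past the threshold of the edgeR test, 3 of 10, where 11.3% of the 14309 genes tested passed in either direction, and none was lower. Together with S100A11 they were the 4 genes whose hypoxic libraries all lay above their normoxic ones, against 20.9% of all genes with no overlap in either direction. These values come from the contrast known when the genes were selected and are a description of it.

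S100A2 had 54.1, 73.3, 67.4 and 83.3 CPM in the normoxic and 95.5, 144, 121 and 166 CPM in the hypoxic PC3 libraries 1 to 4. Every hypoxic library was above the highest normoxic one, and the log2 fold change was 0.93 (SE 0.17). S100A4 had 4.12, 4.28, 4.72 and 5.63 CPM in normoxia and 8.78, 9.47, 7.38 and 8.10 CPM in hypoxia, again with no overlap and with a log2 fold change of 0.85 (SE 0.12). Its hypoxic level in PC3 remained far under that of any HCT116 library.

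S100A10 had 463, 402, 420 and 353 CPM in normoxia and 585, 575, 549 and 541 CPM in hypoxia, a log2 fold change of 0.46 (SE 0.09). The groups did not overlap. It fell short of the threshold without the second normoxic, the third normoxic or the second hypoxic PC3 library, with log2 fold changes of 0.45, 0.47 and 0.46. S100A11 had 377, 360, 354 and 318 CPM in normoxia and 428, 406, 391 and 448 CPM in hypoxia (0.25, SE 0.08) and did not pass.

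Same-numbered PC3 libraries deviated together, and a fit with the replicate number as a block called 7 of the 10 genes higher, against 28.5% of all genes called in either direction by that fit. The genes it added were S100A6 (log2 fold change 0.29, SE 0.07), S100A11 (0.25, SE 0.07), S100A14 (0.39, SE 0.06) and S100P (0.55, SE 0.06). Without the libraries numbered 1, a choice made after seeing the data, the blocked fit called 5, namely S100A2, S100A4, S100A10, S100A14 and S100P. The share of all genes called by this smaller fit is not given here. In 9 of the 10 genes the hypoxic library was above its same-numbered normoxic library in all 4 pairs, as it was for 25.0% of all genes. S100A13 was the exception, with log2 ratios of 0.022, 0.15, -0.052 and 0.35.

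S100P was the clearest case of a level that moved with the replicate number. The normoxic libraries held 28.8, 11.1, 12.6 and 16.7 CPM and the hypoxic ones 43.0, 18.0, 16.5 and 23.7 CPM. Replicate 1 was the highest in both conditions, by 2.59 and 2.60 times the lowest, so the groups overlapped, and the unblocked log2 fold change was 0.56 (SE 0.37). Its log2 ratios within pairs were 0.58, 0.70, 0.40 and 0.50. S100A14 had 51.3, 51.5, 51.4 and 78.0 CPM in normoxia and 65.6, 75.1, 60.1 and 103 CPM in hypoxia, with replicate 4 the highest in both conditions and within-pair ratios of 0.35, 0.54, 0.23 and 0.40.

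S100A6 had 989, 792, 865 and 853 CPM in normoxia and 1135, 1057, 945 and 1134 CPM in hypoxia, so only the third hypoxic library was below a normoxic one. S100A16 had 200.4, 228, 218 and 275 CPM in normoxia and 206, 283, 229 and 387 CPM in hypoxia (0.27, SE 0.18). S100A13 had 26.6, 29.4, 27.3 and 33.2 CPM in normoxia and 27.0, 32.6, 26.4 and 42.2 CPM in hypoxia (0.14, SE 0.14). S100A3, the least abundant, had 1.60, 2.26, 2.01 and 2.19 CPM in normoxia and 1.97, 2.46, 2.22 and 2.93 CPM in hypoxia (0.25, SE 0.16). In each of these 4 genes the groups overlapped.

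**Figure D3:**
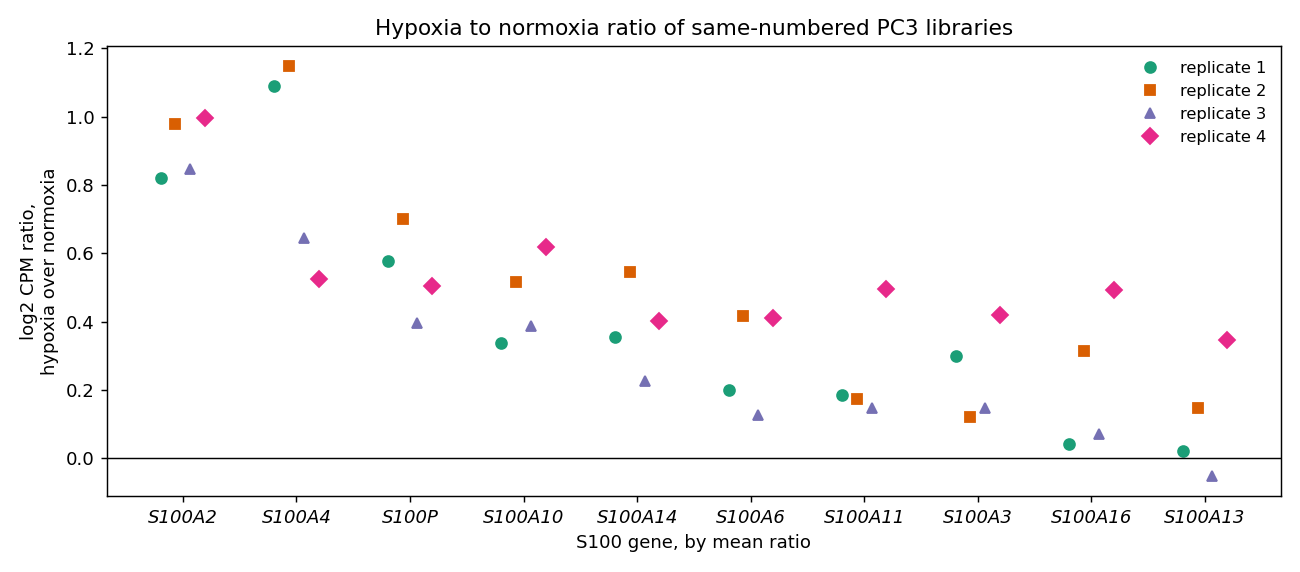
Log2 ratio of the CPM in each hypoxic PC3 library to the CPM in the normoxic library of the same number, with 1 symbol per replicate number and genes ordered by their mean ratio. All points lie above 0 except 1 of S100A13, at -0.052, and the 4 points of S100A2 lie between 0.82 and 1.00.

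In HCT116, 9 of the 10 genes could be tested, since S100P had 1 to 22 counts in its libraries and did not pass the filter on low counts. Of the 9, 8 had a log2 fold change above 0, with a median of 0.19 beside 0.0018 over all genes. S100A10 and S100A2 were higher past the threshold, 2 of 9, where 25.9% of the 14120 genes tested passed in either direction. The same 2 genes were the only ones with no overlap of the groups, against 42.5% of all genes tested.

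S100A10 had 182, 184 and 204 CPM in the normoxic and 254, 298 and 282 CPM in the hypoxic HCT116 libraries. Its groups stood apart, the log2 fold change was 0.56 (SE 0.08), and it passed the test in every alternative run. S100A2 had 9.99, 10.2 and 13.7 CPM in normoxia and 14.9, 14.5 and 13.8 CPM in hypoxia, a log2 fold change of 0.36 (SE 0.12). The third normoxic library nearly met the third hypoxic one, and the call was lost when any library other than the third normoxic one was left out, with log2 fold changes of 0.27 to 0.40. It was also lost with total-count scaling (0.28) and in a single fit over all libraries (0.35).

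The third normoxic HCT116 library was the highest of the 3 for 8 of the 10 genes. S100A4 had 93.6, 108 and 156 CPM in normoxia and 128, 150.4 and 157 CPM in hypoxia, and S100A6 had 522, 543 and 747 CPM in normoxia and 661, 718 and 660 CPM in hypoxia. In both genes the first and second normoxic libraries lay under all hypoxic ones and the third did not. Without that library 5 of the 9 genes passed, S100A2 (0.52), S100A4 (0.53), S100A6 (0.36), S100A10 (0.61) and S100A13 (0.24). The share of all genes that passed in that fit is not given here (25.9% with all libraries). Whether the added calls are particular to these genes is therefore not shown. With all libraries the log2 fold changes of S100A4, S100A6 and S100A13 were 0.30 (SE 0.16), 0.19 (SE 0.12) and 0.06 (SE 0.13). What sets this library apart was not tested.

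S100A11 had 68.5, 74.5 and 71.2 CPM in normoxia and 73.7, 84.0 and 75.5 CPM in hypoxia (0.14, SE 0.07), with groups that overlapped in 1 library. The other 3 genes also overlapped, with log2 fold changes of 0.19 (SE 0.12) for S100A14, 0.12 (SE 0.19) for S100A3 and -0.00 (SE 0.08) for S100A16. The sign of S100A13 turned with total-count scaling, to -0.03, and with length and GC offsets, to -0.01. S100P had 9, 3 and 1 counts in hypoxia, so it was not detectably induced in HCT116 at this depth.

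**Figure D4:**
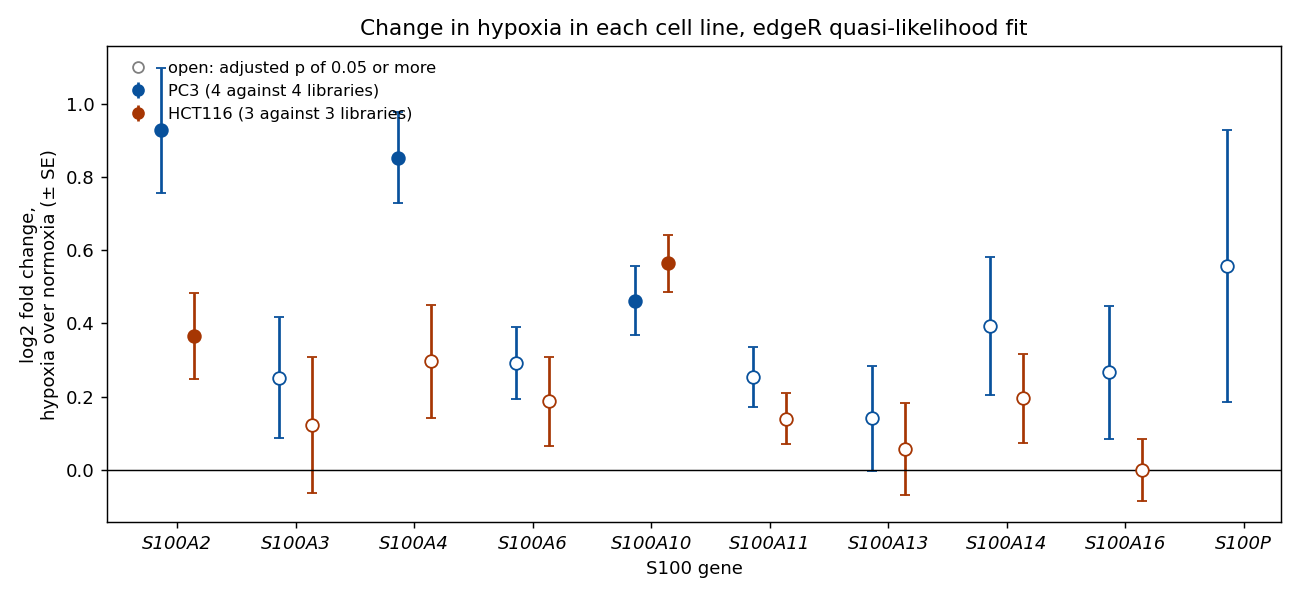
Log2 fold change of each S100 gene, hypoxia over normoxia, in PC3 (blue, 4 against 4 libraries) and HCT116 (brown, 3 against 3 libraries), with SE as error bars and filled symbols where the adjusted p was under 0.05. S100A2, S100A4 and S100A10 are filled in PC3 and S100A2 and S100A10 in HCT116, where S100P has no symbol because it was not tested.

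The hypoxic responses of the lines were compared as an interaction in a fit over the 14 libraries. None of the 10 genes passed in edgeR or in DESeq2, where 2.32% of the 15493 genes tested passed in edgeR. The largest differences of well counted genes were those of S100A2 (log2 fold change 0.58 greater in PC3, SE 0.25) and S100A4 (0.56, SE 0.22). With the replicate number as a block, S100A2 passed at 0.55, and with length and GC offsets added S100A2 and S100A4 both passed at 0.56. S100A10 had nearly the same fold change in both lines, with a difference of -0.09 (SE 0.13). S100P had a difference of 1.86 (SE 1.27), which rests on the 1 to 22 counts of HCT116.

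Of the 11 other S100 genes, S100A9, which forms calprotectin with S100A8 in neutrophils and monocytes, was the best expressed. It had 127, 47.9, 73.5 and 56.4 CPM in the normoxic and 138, 65.3, 79.0 and 70.6 CPM in the hypoxic PC3 libraries, with replicate 1 the highest in both. No HCT116 library held a count of it except the third hypoxic one, with 12, so its normoxic PC3 mean was at least 3403-fold higher than the floor of 3 counts per library. S100A8 had 0 to 37 counts in PC3 and none in HCT116. The summed myeloid markers given above were also higher in PC3 than in HCT116, and their part in the level of S100A9 was not tested. S100A9 did not pass in PC3 (log2 fold change 0.21, SE 0.34, edgeR adjusted p = 0.723), but did with the replicate block (0.25, edgeR adjusted p = 0.0338).

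S100A5, whose gene lies between S100A6 and S100A4, rose in hypoxic HCT116 cells by 0.91 on the log2 scale (SE 0.25, edgeR adjusted p = 0.0211). Its normoxic libraries held 96 to 132 counts and its hypoxic ones 138 to 244, and the CPM of the groups overlapped. That call was lost when the first or the second normoxic or the second or the third hypoxic library was left out (0.75 to 0.82). S100A5 did not pass in PC3 (0.05, edgeR adjusted p = 0.916), and it was lower in PC3 than in HCT116 in normoxia (-0.92, edgeR adjusted p = 0.00796). S100A1, which shares exon bases with S100A13, was higher in PC3 in normoxia (0.76, edgeR adjusted p = 0.0368, and 0.106 in a single fit over all libraries) and did not pass in hypoxia in either line. The other 7, S100A7, S100A7A, S100A7L2, S100A12, S100B, S100G and S100Z, had fewer than 5 counts in every library. In hypoxic PC3 cells 4 of the 11 were tested, with a median log2 fold change of -0.13, so they did not share the upward values of the members. S100A1 (-0.36, SE 0.26, edgeR adjusted p = 0.411) and the sparsely counted S100A8 (-0.31, SE 1.04, edgeR adjusted p = 0.878) were below 0. S100A9 and S100A5 were above 0. In HCT116 2 were tested, with a median of 0.56.

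The 13 other genes within 100000 bases of a member give the surroundings. In hypoxia, 1 of 11 tested passed in PC3, near the 11.3% of all genes, namely THEM4, 73278 bases from S100A10, which fell by 0.38 on the log2 scale (edgeR adjusted p = 0.0276) while S100A10 was higher. In HCT116 none of 11 passed in edgeR or DESeq2, and 3 had an unadjusted p under 0.05 in edgeR. THEM4 did not pass in PC3 with length and GC offsets (-0.34, edgeR adjusted p = 0.0571) or without 6 of the 8 libraries in turn. The neighbours' median log2 fold change was 0.015 in PC3 and 0.040 in HCT116, beside 0.34 and 0.19 for the members. The members were selected with their responses known and the neighbours by position. The medians are therefore a description and do not show that S100 genes differ from their surroundings. Between the lines in normoxia, 7 of 12 neighbours were lower and 3 higher in PC3, a share close to the 83.4% of all genes that differed. MRFAP1 was among the lower ones (-1.13, edgeR adjusted p = 4.31e-08), and NPR1, among the higher ones, had 28 to 40 counts in the normoxic PC3 libraries and 1 in each normoxic HCT116 library. Of the 3 higher neighbours, INTS3 and KIAA0232 turned to -0.00 and -0.46 with length and GC offsets.

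Partners of S100 proteins, a list of 18 genes chosen from their known binding, were tested in the same fits. In hypoxic PC3 cells 1 of 18 passed, AHNAK, the giant scaffold bound by the complex of S100A10 and annexin A2 (0.57, SE 0.13, edgeR adjusted p = 0.0219), and the list's median was 0.11, where 11.3% of all genes passed. This call was lost without PC3 normoxia replicate 2, 3 or 4 or hypoxia replicate 2, with an edgeR adjusted p of up to 0.0807. With the replicate block 7 passed, beside 28.5% of all genes, all higher, led by FGF1 (0.72, edgeR adjusted p = 0.00241). In HCT116, 7 of 17 rose and 2 fell, where 25.9% of all genes passed in either direction, and the list's median was 0.04. AHNAK rose most (1.32, SE 0.07, edgeR adjusted p = 3.43e-07), followed by ANXA5 (0.40, edgeR adjusted p = 0.00277), MYH9, the myosin partner of S100A4 (0.35, edgeR adjusted p = 0.0107), and EZR (0.35, edgeR adjusted p = 0.00431). ANXA1, the partner of S100A11, fell by 0.35 (edgeR adjusted p = 0.0194), a call lost without the third hypoxic library (-0.29), and MYH9 did not pass without the second normoxic library (0.28) or in a single fit over all libraries (edgeR adjusted p = 0.3).

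ANXA2, named here after its values were seen because it is the partner of S100A10, had 1763 ± 75.0 CPM in normoxic and 2136 ± 197 CPM in hypoxic PC3 cells (SD, n = 4). In HCT116 it had 2005 ± 136 and 2382 ± 245 CPM (SD, n = 3), a rise of 0.27 on the log2 scale (edgeR adjusted p = 0.0395). In PC3 it did not pass in the main fit (0.28, edgeR adjusted p = 0.0576) but did with the replicate block (0.28, edgeR adjusted p = 0.037). Between the lines in normoxia 17 of 18 partners differed, 7 higher and 10 lower in PC3, where 83.4% of all genes differed. They included FGF1 (5.06, edgeR adjusted p = 2.58e-06) and IL1A (4.08, edgeR adjusted p = 3.72e-06), the cargo of S100A13, which were higher, and EZR (-2.66, edgeR adjusted p = 7.19e-09), which was lower. Of the 7 higher partners, ANXA5 and IQGAP1 turned to -0.03 and -0.57 with length and GC offsets.

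Plasminogen activation, in which the complex of S100A10 and annexin A2 acts as a receptor at the cell surface, was followed in 8 genes. In hypoxic PC3 cells 2 of 7 tested rose and 2 fell, beside 11.3% of all genes called. PLAT, the tissue-type activator, rose by 1.08 (SE 0.11, edgeR adjusted p = 0.000704), from 504 ± 45.3 to 1057 ± 129 CPM (SD, n = 4). PLAU, the urokinase-type activator, fell by 0.64 (SE 0.08, edgeR adjusted p = 0.00193), from 1264 ± 57.2 to 808 ± 55.5 CPM. CTSB rose by 0.36 (edgeR adjusted p = 0.0398) and the inhibitor SERPINB2 fell by 0.91 (edgeR adjusted p = 0.0367), but CTSB lost its call without 7 of the 8 libraries in turn and SERPINB2 without 6, with an edgeR adjusted p of up to 0.129 and 0.104. In HCT116, 3 of 6 tested rose and none fell, beside 25.9% of all genes called, among them PLAUR, the urokinase receptor (0.78, edgeR adjusted p = 0.000328), and CTSB (0.31, edgeR adjusted p = 0.00724).

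Receptors of released S100 proteins, a list of 6, gave no edgeR call in PC3 among 4 tested, with 1 at an unadjusted p under 0.05. DESeq2 called 1 of them in PC3. In HCT116 edgeR called 1 among 3, BSG (0.38, edgeR adjusted p = 0.00194). BSG did not pass in a single fit over all libraries (edgeR adjusted p = 0.108). ALCAM passed in PC3 with the replicate block (0.31, edgeR adjusted p = 0.00644). Of 28 other EF-hand genes, 2 of the 26 tested rose and 1 fell in PC3, with a median of 0.15, and 7 of 26 rose and 2 fell in HCT116, with a median of 0.04, beside 11.3% and 25.9% of all genes called. The block raised the PC3 count to 10, beside 28.5% of all genes. CALB1 (0.64, edgeR adjusted p = 0.00363) was the largest rise past the threshold in PC3 and EFHD2 (1.10, edgeR adjusted p = 3.17e-06) in HCT116, and GCA fell by 0.41 in each line (edgeR adjusted p = 0.0132 and 0.00607), a call lost in both with length and GC offsets. The S100 fused-type proteins, large proteins of the same chromosome 1 region that carry an S100 domain, gave no call in hypoxia, with 1 of 7 tested in PC3 and 3 in HCT116, 0 of them at an unadjusted p under 0.05 in edgeR and 0 called by DESeq2.

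The genes whose log2 CPM profile over the 14 libraries ran closest to each S100 gene were sought among the 12628 genes averaging 1 CPM or more, by the root mean square difference of centred values. S100A11 had the closest neighbours of the genes higher in PC3, CCM2 (0.083) and TMEM65 (0.094), while the closest to S100A13 was RPL32 (0.068). S100A6 ran nearest to TMEM59 (0.10) and RAB9A (0.10), S100A10 to SLC35E1 (0.12) and CDCP1 (0.12), and S100A2 to NREP (0.19) and RNF182 (0.22). S100A4 had no gene nearer than C2CD4C (0.29) and ID2 (0.35), and S100P none nearer than GBP3 (0.69) and C4orf19 (0.72). S100A3 ran nearest to NME2 (0.13), S100A14 to EPOR (0.15) and S100A16 to BAD (0.12). All profiles share libraries and depth, and they include the difference between the lines.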

How the data were processed

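Per the paper's methods, the authors aligned paired-end reads with HISAT2 (2.05), first to spike-in sequences and then to GRCh37. Reads inside RefSeq genes were counted with HTSeq (0.5.4p3, intersection-strict), and the authors deposited these raw counts per gene, which were used as they stand. The RefSeq release and strand setting are not given in the sources used here. Spike-in counts were not used here, so values are relative to the other genes of a library.

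Each contrast was fitted in R 4.3.3 with edgeR 4.0.16: filterByExpr, TMM scaling and the quasi-likelihood test, adjusted by Benjamini-Hochberg over all genes tested, with a threshold of 0.05. SE was obtained from F, as the unshrunk log2 fold change over its square root. DESeq2 1.42.0, other scalings and filters, length and GC offsets, a replicate block and the omission of each library were alternatives. The pipeline was checked on simulated counts. CPM per kb divides by the union of a gene's GENCODE exons.

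Same-numbered PC3 libraries had correlated deviations from their group means (r = 0.69, 0.28, 0.15 and 0.29 over genes), so blocked values are given where they change a call. Replicate libraries differed by 12.5 to 268 in chi-square per gene, so each was counted separately. The study calls them biological replicates. Floors cover counting error only. The 10 genes and all lists were chosen with earlier results of these data known. Named are the S100 genes, NDRG1, up to 5 genes per list and contrast past the threshold with the largest changes, and up to 2 nearest profiles per gene. A few genes that this rule names are not reported here.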

Additional observations from a re-analysis of the deposited data

Results flagged for a closer look

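S100A14 stood out in normoxic PC3 cells, where replicate 4 had 78.0 CPM and the other 3 libraries 51.3 to 51.5 CPM, a gap larger than Dixon's 95% limit. Replicate 4 was also the highest of the hypoxic PC3 libraries for this gene. In all, 22 groups of 4 libraries were looked at in this way, of which chance marks about 1 in 20.

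Responses to hypoxia differed between the lines, by the interaction test of edgeR over all libraries, for the genes of the lists given here and for none of the 10 S100 genes. The difference, PC3 minus HCT116, was 0.88 on the log2 scale for PLAT (SE 0.16, edgeR adjusted p = 0.0102). It was -0.74 for AHNAK (SE 0.17, edgeR adjusted p = 0.0311), which rose more in HCT116. PLAUR had a difference of -0.64 (SE 0.15, edgeR adjusted p = 0.0378). Without single libraries the adjusted p of AHNAK rose to at most 0.0984 and that of PLAUR to 0.119, while PLAT passed each time.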

How the results depend on the processing

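With total-count scaling the median log2 fold change of all genes was -0.10 in PC3, -0.09 in HCT116 and 0.13 between the lines, and all changes are relative to such a shift. In PC3, 863 genes were higher and 757 lower in hypoxia. These counts were 562 and 1733 with total-count scaling, 1383 and 1185 with DESeq2, 2125 and 1949 with the replicate block, 2334 and 2015 with length and GC offsets added to the block, and 364 to 1143 and 189 to 942 when single libraries were left out, the lowest without the third normoxic library. A single fit over all libraries gave 1246 lower. The S100 genes called in PC3 were 3, or 4 in the single fit, 2 to 4 without single libraries, 5 with DESeq2 and 7 with the block, with or without offsets, and 5 with the block and no library numbered 1. In HCT116, 2061 genes were higher and 1597 lower, against 1286 and 3146 with total-count scaling, 938 and 795 in a single fit, and 2402 lower with offsets and the block. The S100 genes called in HCT116 were 2, but 1 with total-count scaling and in the single fit, and 1 to 5 without single libraries. The response difference was higher in PC3 for 467 genes and lower for 504 with DESeq2, 597 and 710 with the block and 1054 and 791 with offsets and the block, and 78 to 294 and 94 to 423 without single libraries. Of the S100 genes, 1 passed with the block and 2 with offsets and the block. The causes of these changes were not tested. With length and GC offsets the difference between the lines in normoxia turned for ANXA5 (-0.03), EPCAM (-0.02), IQGAP1 (-0.57), INTS3 (-0.00) and KIAA0232 (-0.46). No called value of an S100 member changed sign. The numbers of the HCT116 libraries are not taken as pairs (r = 0.092, 0.16 and 0.033, each library correlating best with its own number), and the replicate block called 3 S100 genes there, adding S100A4. The share of all genes called is not given for the HCT116 fits with the replicate block or without single libraries. It is also not given for the PC3 block without the libraries numbered 1. The S100 counts of these fits therefore have no background beside them. Depth limits S100P in HCT116, with at most 22 counts.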
